A study of Homo sapiens with 12 samples.

Results

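The genes described here make the enzymes that hydroxylate and cross-link collagen: the prolyl 4-hydroxylase subunits P4HA1, P4HA2 and P4HB, the lysyl hydroxylases PLOD1, PLOD2 and PLOD3, and the lysyl oxidases LOX and LOXL2. They were chosen by gene name, and every transcript model of these names that matched a reference transcript (Cufflinks class =) or shared at least a splice junction with one (class j) was kept, so that 8 of 56537 gene names and 131 of 286562 such transcript models are covered. The study measured poly(A) RNA by strand-specific sequencing in HCT116, a human colorectal carcinoma cell line. Cells were harvested at 21% oxygen (0 h) or after 1 h, 2 h or 24 h in 1% oxygen in a hypoxia workstation, with 3 replicate libraries at each of the 4 time points. All groups were the same unmodified line in the same medium, and a separate culture kept at 21% oxygen for 24 h was not analysed here, so time in culture and time in low oxygen cannot be told apart. The deposited values were FPKM (sequenced fragments scaled to transcript length and to the mapped fragments of the library), which carry no read counts, so the number of reads behind each value is unknown and no counting interval could be given.

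Collagen chains are modified in the endoplasmic reticulum before they fold. Prolyl 4-hydroxylase, built from alpha subunits (P4HA1, P4HA2 or P4HA3) that carry the active site and the beta subunit P4HB, hydroxylates prolines that keep the triple helix stable; the PLOD enzymes hydroxylate lysines, and the secreted lysyl oxidases then oxidise lysines and hydroxylysines so that collagen fibres become cross-linked. The hydroxylases use molecular oxygen as a substrate, and several genes of the group are textbook targets of the hypoxia-inducible factors, which bind a short element with the core ACGTG or GCGTG.

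The sequence upstream of the members was read for that core because most of them moved together at 24 h. In the 250 bases before the annotated GENCODE start (GRCh37), ACGTG was found on either strand in P4HA1, P4HA2, PLOD2 and LOX, against 20.5% of 19553 protein-coding genes. ACGTG or GCGTG was present in 51.5% of those genes. P4HB and PLOD1 held GCGTG only, and PLOD3 and LOXL2 held neither within this window. In every member other than PLOD2 and LOX this window overlaps exons of other transcripts of the same gene, so that it is partly transcribed there. The whole run of matches is given below for PLOD2 and LOX, and at most 30 bases around the ACGTG match for P4HA1 and P4HA2, 5′ to 3′ on the strand of the gene, with each match in the stretch in capitals (CACGT is ACGTG on the other strand).
PLOD2, chr3:145879103-145879194, minus strand: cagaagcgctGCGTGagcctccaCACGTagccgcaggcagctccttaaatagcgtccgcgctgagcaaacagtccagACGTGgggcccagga
LOX, chr5:121413982-121414149, minus strand: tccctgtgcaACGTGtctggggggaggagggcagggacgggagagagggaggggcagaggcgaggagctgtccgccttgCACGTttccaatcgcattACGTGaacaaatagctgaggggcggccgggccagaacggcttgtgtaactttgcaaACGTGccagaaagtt
P4HA1, chr10:74856694-74856723, minus strand: gtgtgatcgagctCACGTagcgagggctgc
P4HA2, chr5:131563596-131563625, minus strand: GCGTGaggtggggACGTGgcggcggctcaa
PLOD2 held 3 matches, 213, 200 and 146 bases before its start, and LOX held 4 of ACGTG. P4HA1 had a single match 86 bases before its annotated start, and P4HA2 had a further GCGTG 88 bases before its own, outside the stretch shown. A match describes these letters only; binding was not measured.

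P4HA1, P4HA2 and PLOD2 carry alternative coding exons that distinguish their isoforms, and these are shown because the isoform values below are split by them. Exons are in capitals and the 10 intronic bases on each side in lower case, GRCh37, minus strand. P4HA1 and P4HA2 each use 1 of 2 neighbouring exons, and PLOD2 includes or skips a single exon.
P4HA1 first exon, 71 bases, chr10:74804739-74804809: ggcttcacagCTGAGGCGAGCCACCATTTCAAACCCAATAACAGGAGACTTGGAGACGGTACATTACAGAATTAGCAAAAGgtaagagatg
P4HA1 second exon, 71 bases, chr10:74803645-74803715: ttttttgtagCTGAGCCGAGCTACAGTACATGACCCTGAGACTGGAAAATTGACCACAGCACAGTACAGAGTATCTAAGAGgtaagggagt
P4HA2 shorter exon, 60 bases, chr5:131534014-131534073: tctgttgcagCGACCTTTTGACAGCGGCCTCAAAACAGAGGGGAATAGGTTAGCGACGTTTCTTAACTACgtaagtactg
P4HA2 longer exon, 66 bases, chr5:131533899-131533964: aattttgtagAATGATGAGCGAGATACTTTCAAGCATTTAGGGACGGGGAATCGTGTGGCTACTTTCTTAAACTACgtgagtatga
PLOD2 cassette exon, 63 bases, chr3:145795649-145795711: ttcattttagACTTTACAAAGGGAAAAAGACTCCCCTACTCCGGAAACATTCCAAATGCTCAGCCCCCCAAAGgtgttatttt
The PLOD2 exon keeps the reading frame, and its inclusion marks the long form of lysyl hydroxylase 2, known for acting on the telopeptides of collagen. The P4HA1 exons were identical at 46 of 72 aligned positions, and those of P4HA2 at 38 of 68.

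The epithelial identity of the cells was visible in every library. KRT8 stood at 786 to 1191 FPKM and EPCAM at 213 to 354 FPKM, whereas the intestinal villus gene VIL1 was at most 0.048 FPKM. The epithelial cadherin CDH1 rose from 7.42 ± 0.73 FPKM at 0 h to 26.3 ± 1.7 FPKM at 24 h (log2 1.76, limma adjusted p = 8.5e-07). KRT19 and CLDN7 were higher at 24 h by 0.99 and 0.63 on the log2 scale (limma adjusted p = 1.7e-05 and 0.00019), under the minimum fold change used below. CDX2 was at -0.39 (limma adjusted p = 0.03), EPCAM at -0.28 (0.16), KRT18 at -0.20 (0.32) and KRT8 at -0.16 (0.39), none of them called. Of 10 fibroblast markers, only COL1A1 and FBN1 passed the filter (FPKM above 0.5 in at least 3 libraries), and LUM and PDGFRA were listed at 0 throughout. The summed fibroblast list was 2.11 to 2.46 FPKM at 0 h and 6.39 to 9.50 FPKM at 24 h, most of it COL1A1. Of 3 immune markers PTPRC and CD3E were at or near 0, and CD68 was 2.01 ± 0.27 FPKM at 0 h and 10.2 ± 3.7 at 24 h. The 3 endothelial markers summed to at most 0.093 FPKM. The part of these markers in the results below was not tested.

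After 24 h in 1% oxygen, 5 of the 7 members that could be tested rose: LOXL2, PLOD2 and P4HA1 by more than 10 times in FPKM, and P4HA2 and PLOD1 by 2 to 3 times. P4HB was 1.45-fold higher, under the 2-fold limit, PLOD3 was not called, and LOX was listed at 0 in 10 of the 12 libraries and could not be tested. Called means an absolute log2 change above 1 and a Benjamini-Hochberg adjusted p below 0.01 in limma on log2(FPKM + 0.5), fitted to 16680 gene names. Across all genes tested 18.3% were called at 24 h, 8.76% higher and 9.51% lower. Every 24 h library lay above the other 9 libraries for 6 of the 7 members (20.5% of all genes), and above every 0 h library for the same 6 (27.6% of all genes). The replicates are described as biological by the submitters.

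**Figure D1:**
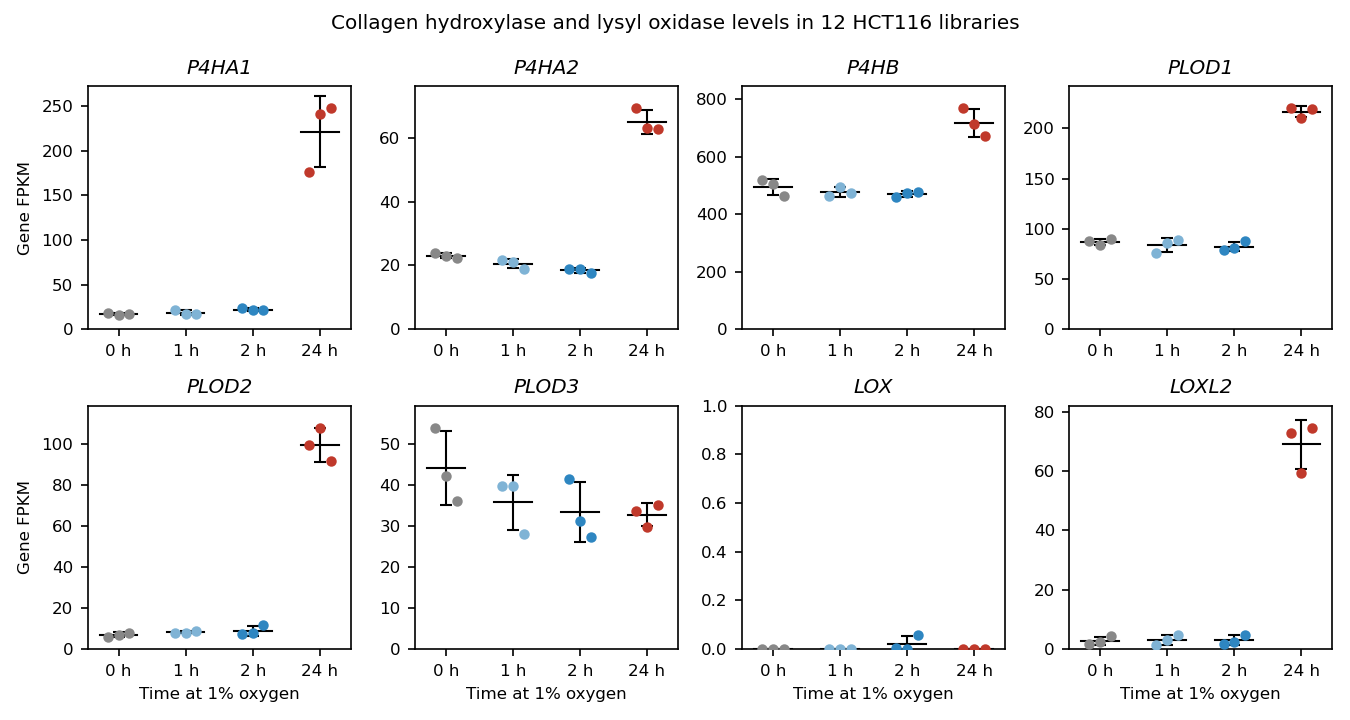
Gene-level FPKM (vertical axes, from 0, each gene on its own scale) of the 8 members in 3 libraries at each time in 1% oxygen (0 h, 21% oxygen); points are libraries, horizontal lines means and bars SD. For P4HA1, P4HA2, P4HB, PLOD1, PLOD2 and LOXL2 the 24 h libraries sit above the other 9, PLOD3 lies between 27.3 and 53.9 FPKM, and LOX is at or near 0.

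P4HA1, the catalytic alpha subunit (chr10:74765590-74857070, GRCh37), had 18.1, 15.5 and 16.9 FPKM in the 3 libraries at 0 h. It had 21.5, 16.9 and 16.5 FPKM at 1 h and 23.4, 21.1 and 21.9 FPKM at 2 h. At 24 h it reached 176, 241 and 248 FPKM. The 24 h libraries were far above all others, and the 2 h libraries also lay above the 0 h libraries without overlap. The change at 24 h was 13.2-fold between means (16.8 ± 1.3 to 222 ± 39.5 FPKM, SD, n = 3), or 3.67 ± 0.14 on the log2 scale (SE; limma adjusted p = 1.3e-08). At 2 h the difference of 0.39 ± 0.14 had an unadjusted p of 0.017 and a limma adjusted p of 0.23, and was not called.

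P4HA2, the second alpha subunit (chr5:131466746-131731309), had 23.9, 23.0 and 22.3 FPKM at 0 h and 69.3, 63.0 and 62.6 FPKM at 24 h. In between it was lower, with 21.6, 21.1 and 19.0 FPKM at 1 h and 18.8, 18.9 and 17.6 FPKM at 2 h. None of the 1 h or 2 h libraries reached the lowest 0 h library. The difference at 2 h was -0.32 ± 0.09 on the log2 scale (unadjusted p = 0.0034, limma adjusted p = 0.14), which did not pass. At 24 h P4HA2 rose 2.82-fold, by 1.47 ± 0.09 on the log2 scale (limma adjusted p = 2.4e-07).

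P4HB, the beta subunit, which is also protein disulfide isomerase (chr17:79801031-79818570), was the most abundant member per length. It had 518, 504 and 463 FPKM at 0 h, 462, 495 and 474 FPKM at 1 h, and 459, 475 and 477 FPKM at 2 h. At 24 h it had 769, 715 and 671 FPKM, above all the rest. The difference was 1.45-fold and 0.54 ± 0.08 on the log2 scale (limma adjusted p = 0.00021), below the minimum fold change, so that P4HB was not counted among the called members.

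The alpha subunits were more abundant relative to P4HB after 24 h. P4HB exceeded the summed alpha subunits 12.3, 13.1 and 11.7 times at 0 h and 3.12, 2.35 and 2.16 times at 24 h. P4HA1 made up 43.0, 40.1 and 42.9% of the summed FPKM of P4HA1, P4HA2 and P4HA3 at 0 h, 49.8, 44.2 and 46.0% at 1 h, 55.3, 52.6 and 54.8% at 2 h, and 71.6, 79.1 and 79.7% at 24 h. No library at 1 h, 2 h or 24 h overlapped the 0 h libraries in this percentage. The exact two-sided permutation p was 0.1 at each of these 3 times for the P4HA1 percentage, and 0.1 at 24 h for the log2 ratio of alpha subunits to P4HB. This is the smallest p that 3 against 3 libraries allow, so neither ratio could pass 0.05; adjusted over the 10 ratio comparisons that gave a p each was 0.2 (LOX at 1 h and 24 h gave none).

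Of the lysyl hydroxylases, PLOD2 had the largest log2 change. PLOD2 (chr3:145781828-145881440) had 5.88, 7.05 and 8.06 FPKM at 0 h, 7.85, 7.86 and 8.74 FPKM at 1 h, and 7.12, 7.72 and 11.5 FPKM at 2 h. At 24 h it had 99.2, 108 and 91.4 FPKM. The early groups overlapped with 0 h, and the 24 h libraries stood apart from all 9 others. The 24 h mean was 14.2 times that at 0 h (3.74 ± 0.16 on the log2 scale, limma adjusted p = 3.4e-08).

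PLOD1, which acts mainly on lysines within the helix (chr1:11994261-12036823), had 88.1, 83.7 and 89.5 FPKM at 0 h and 220, 210 and 220 FPKM at 24 h. It ranged from 75.5 to 89.2 FPKM over the 1 h and 2 h libraries, which overlapped with 0 h. The 24 h change was 2.49-fold and 1.31 ± 0.09 on the log2 scale (limma adjusted p = 4e-07). PLOD3, which also has collagen glucosyltransferase activity (chr7:100849256-100867474), had 53.9, 42.3 and 36.1 FPKM at 0 h and 33.7, 29.7 and 35 FPKM at 24 h. At 1 h it had 39.7, 39.7 and 28.1 FPKM and at 2 h 41.5, 31.3 and 27.3 FPKM. The difference at 24 h was -0.40 ± 0.19 on the log2 scale (limma adjusted p = 0.084) and was not called. All 3 libraries of 24 h lay below the lowest of 0 h, by a narrow margin. Without library 1 of 0 h, the highest, the difference was -0.25 (limma adjusted p = 0.31), and without library 3 of 0 h, the lowest, it was -0.54 (limma adjusted p = 0.041).

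PLOD2 accounted for 3.98, 5.30 and 6.03% of the summed PLOD FPKM at 0 h and 28.1, 31.0 and 26.4% at 24 h. The 2 h libraries, at 5.60, 6.46 and 9.11%, overlapped with 0 h. The exact permutation p of the 24 h difference was 0.1, again the smallest possible (0.2 adjusted over the 10 comparisons). The summed PLOD level went from 138 ± 8.4 to 349 ± 3.7 FPKM (SD, n = 3), and PLOD1 remained the most abundant of the 3 at every time.

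**Figure D2:**
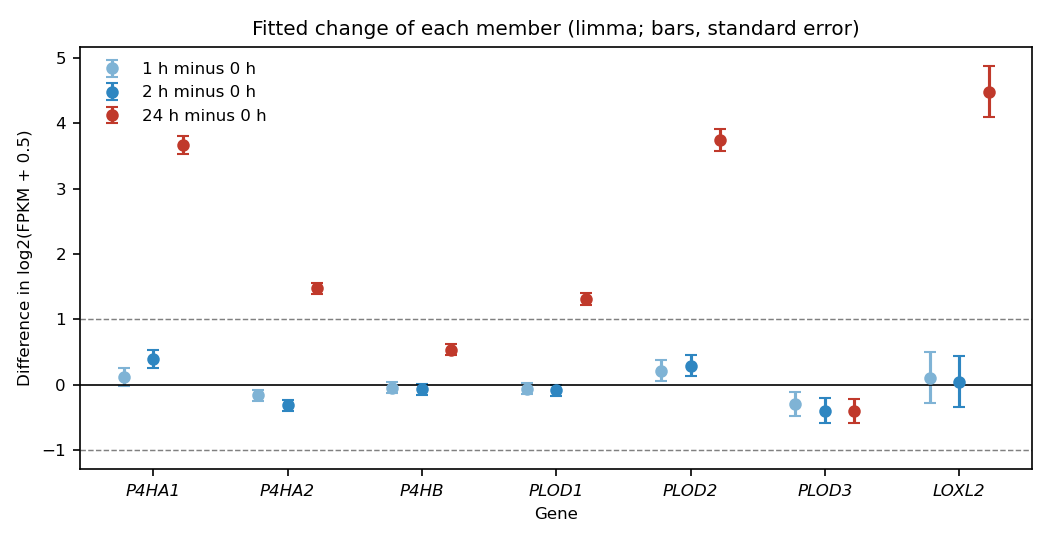
Difference in log2(FPKM + 0.5) from 0 h (vertical axis) of the 7 tested members at 1 h, 2 h and 24 h; points are limma estimates, bars standard errors, dashed lines the minimum change of 1. At 24 h LOXL2, PLOD2 and P4HA1 lie at 4.48, 3.74 and 3.67, P4HA2 and PLOD1 at 1.47 and 1.31, while all 1 h and 2 h points lie between -0.40 and 0.39.

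LOXL2, a secreted lysyl oxidase, had the largest change among the members. It had 1.66, 2.38 and 4.25 FPKM at 0 h, 1.51, 2.96 and 4.82 FPKM at 1 h, and 1.58, 2.45 and 4.81 FPKM at 2 h. In each of these 3 groups the library numbered 3 was the highest and the library numbered 1 the lowest, a spread wider than the differences between the means of the early times. At 24 h LOXL2 had 72.9, 59.4 and 74.5 FPKM. The 24 h mean was 24.9 times that at 0 h, and the log2 change of 4.48 ± 0.39 had the largest SE of the 7 tested members (limma adjusted p = 2.7e-06). LOXL2 shares its deposited locus with ENTPD4, and when all names of that locus were summed the change was 2.28 on the log2 scale and was still called.

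LOX, the founding member of the family, was listed at 0 in all libraries at 0 h, 1 h and 24 h. Only libraries 1 and 3 at 2 h had a value, 0.0046 and 0.059 FPKM. No fold was computed, since the gene lay below the filter at every time. A listing at 0 in FPKM can also be a failed estimate, and without counts no upper limit could be set. LOXL2 made up 21.0, 28.7 and 40.6% of the FPKM of the 5 lysyl oxidase genes at 0 h and 93.5, 91.0 and 90.4% at 24 h, a percentage calculated after the values were seen. The share of LOX itself was 0 at 0 h and 24 h.

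At 0 h the order of gene-level FPKM was P4HB, PLOD1, PLOD3, P4HA2, P4HA1, PLOD2, LOXL2 and LOX, and no neighbours in that order overlapped in their libraries. At 24 h it was P4HB, P4HA1, PLOD1, PLOD2, LOXL2, P4HA2, PLOD3 and LOX. There P4HA1 (176 to 248 FPKM) and PLOD1 (210 to 220 FPKM) overlapped, as did LOXL2 (59.4 to 74.5 FPKM) and P4HA2 (62.6 to 69.3 FPKM).

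**Figure D3:**
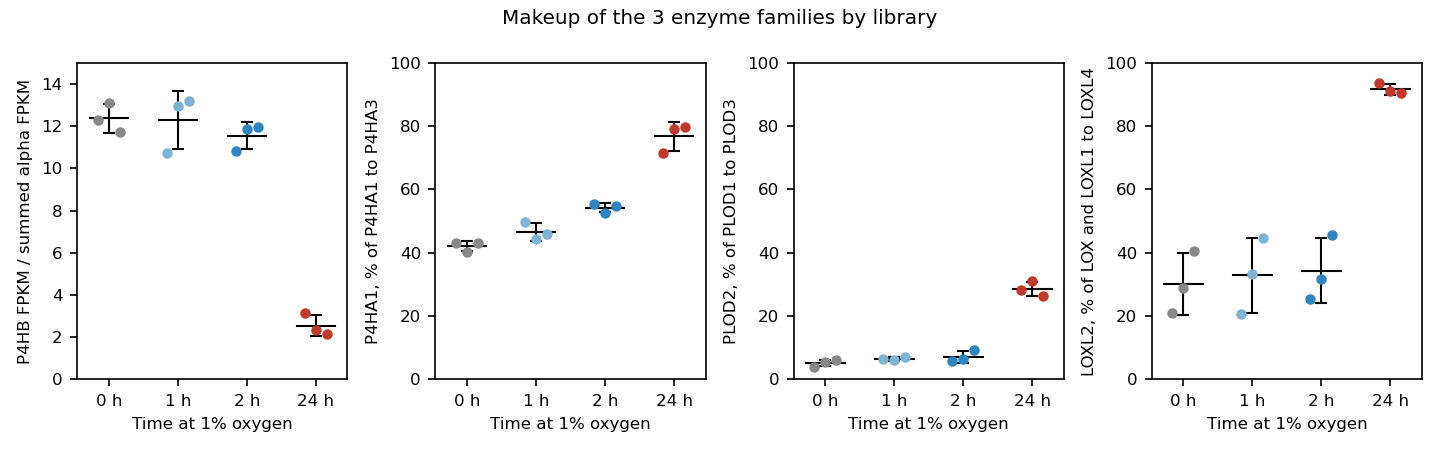
Makeup of the 3 enzyme families in each library at 0 h, 1 h, 2 h and 24 h: FPKM of P4HB divided by the summed alpha subunits, and the percentage that P4HA1, PLOD2 and LOXL2 contribute to their families; points are libraries, lines means and bars SD. P4HB is at 11.7 to 13.1 times the alpha subunits at 0 h and at 2.16 to 3.12 times at 24 h, while P4HA1 reaches 71.6 to 79.7%, PLOD2 26.4 to 31.0% and LOXL2 90.4 to 93.5%.

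The 5 members called at 24 h were not called earlier. No member was called at 1 h or 2 h in limma; 2 had an unadjusted p below 0.05 at 2 h (P4HA1 and P4HA2; 15.3% of all genes) and none at 1 h (4.61% of all genes). With the replicate number as a block, PLOD3 at 2 h (unadjusted p = 0.015 in limma) and P4HA2 at 1 h (0.042) also lay below 0.05, as did 20.9% of all genes at 2 h and 7.34% at 1 h in that fit, and no member was called. P4HA2 at 2 h then had an unadjusted p of 0.0012 and an adjusted p of 0.055 in limma. At 2 h 275 of 16680 genes had an adjusted p below 0.05 with the block, and 52 without it. Across all genes 0.006% were called at 1 h and 0.018% at 2 h without the block. When 24 h was compared directly with 2 h, the same 5 members were called higher, as were 1241 of 16680 genes (14.7% in either direction). The log2 differences were 4.44 for LOXL2, 3.46 for PLOD2, 3.28 for P4HA1, 1.79 for P4HA2 and 1.39 for PLOD1. P4HB differed by 0.61 (limma adjusted p = 9.5e-05), under the minimum fold change, so that 6 of the 7 tested members had an adjusted p below 0.05, as had 50.6% of all genes. The 24 h libraries are shared by this and the previous comparison.

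The size of these changes depended on how libraries were scaled. Between 57.0 and 87.6% of all FPKM in a library belonged to transcripts shorter than 300 bases. Rescaling to TPM over all transcripts moved the median of all genes at 24 h from -0.05 to -0.78 on the log2 scale, and calls went from 1462 higher and 1586 lower to 209 higher and 3995 lower. Under that scaling P4HA2 (0.60, limma adjusted p = 0.24) and PLOD1 (0.44, limma adjusted p = 0.44) were not called, P4HB was at -0.34 and PLOD3 at -1.24 (limma adjusted p = 0.016, not called), whereas P4HA1, PLOD2 and LOXL2 stayed called, with smaller log2 changes of 2.77, 2.81 and 3.45 in place of 3.67, 3.74 and 4.48. Relative to the median of all genes the TPM changes were 1.38 for P4HA2, 1.22 for PLOD1, 0.45 for P4HB and -0.46 for PLOD3, beside 1.52, 1.36, 0.59 and -0.35 without rescaling. For P4HA1, PLOD2 and LOXL2 they were 3.55, 3.59 and 4.23, beside 3.72, 3.8 and 4.53. When transcripts under 300 bases were left out of the TPM, the median moved to -0.13 and all 5 members were called. At 2 h the TPM over all transcripts put the median of all genes at -0.94. PLOD3 was then at -1.44 (limma adjusted p = 0.014), P4HA2 at -1.32 (0.018), P4HB at -1.16 (0.037) and PLOD1 at -1.16 (0.033), none of them called, and the other 3 tested members were at -0.66 to -0.65 with adjusted p of 0.096 to 0.16. Relative to that median PLOD3 was at -0.50, P4HA2 at -0.38, P4HB and PLOD1 at -0.22, and P4HA1, PLOD2 and LOXL2 at 0.28 to 0.29.

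The transcripts of each member were compared by usage, the log2 ratio of a transcript to the rest of its gene (0.5 FPKM added to both), and so were transcripts grouped by deposited start site. At 24 h 17 of 58 tested member transcripts passed an adjusted p of 0.05 in limma, 6 gaining and 11 losing, where 10.9% of all 57084 transcripts passed. Of 41 start-site groups 9 passed, 4 gaining and 5 losing (9.68% of 31006 groups). None passed at 1 h or 2 h in limma. In 3 of the 17 transcripts the usage and the share of FPKM moved in opposite ways, namely in 2 minor transcripts of P4HA1 and a transcript of LOXL2, which were below the added 0.5 FPKM at 0 h, and none of the 3 passed with 0.1 FPKM added. The same held for 1 of the 9 start-site groups, that of the LOXL2 transcript (usage -2.47, share 0 to 2.29%, limma adjusted p = 0.58 with 0.1 FPKM added). With 0.1 FPKM added, PLOD1 ENST00000449038 (limma adjusted p = 0.069) and PLOD2 ENST00000282903 (0.087) did not pass either. Nor did LOXL2 ENST00000519243 (0.34) and a minor P4HA2 model nearest to ENST00000360568 (0.069). Among start-site groups, 1 of P4HB (0.053), 1 of P4HA2 (0.094) and another of LOXL2 (0.067) were also lost. Both of these LOXL2 groups would not have passed the filter without their 24 h libraries.

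The 4 main transcripts of P4HA1, each with a coding length of 1602 bases, differ in the exon used and in the start-site group. Group B (ENST00000307116 and ENST00000373008) took 0, 13.4 and 0% of P4HA1 FPKM at 0 h and 64.1, 35.9 and 51.9% at 24 h. At 1 h it took 45.1, 0 and 0%, and at 2 h 0, 0 and 18.3%. Group C (ENST00000263556, ENST00000394890 and minor models) took 88.6, 74.6 and 90.9% at 0 h and 33.4, 61.2 and 46.0% at 24 h. The early libraries switched between none and much of group B, and its usage change at 24 h was 4.29 ± 1.35 on the log2 scale (limma adjusted p = 0.069), which did not pass.

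The main transcripts of groups B and C encode the same proteins. ENST00000307116 and ENST00000394890 have identical coding sequences, as have ENST00000373008 and ENST00000263556, and within each pair a single intron is placed 4 bases apart and the annotated starts differ by 16 or 108 bases. ENST00000373008 of group B and ENST00000394890 of group C have the same annotated start. Within group C the starts of ENST00000263556 and ENST00000394890 lie 108 bases apart, so that annotated starts do not separate the 2 groups. The shares of these transcripts therefore rest on how reads of nearly identical transcripts were divided, and are uncertain. Group A, a pair of class j models nearest to ENST00000412021, lost share in all libraries, from 11.4, 12 and 9.07% at 0 h to 2.41, 2.70 and 1.97% at 24 h (usage -2.50 ± 0.22, limma adjusted p = 0.00032), although its FPKM rose from 1.82 to 5.21. ENST00000394890 went from 27.9% of P4HA1 FPKM to 10.4% (usage -1.82 ± 0.40, limma adjusted p = 0.017). Without library 3 of 0 h its limma adjusted p was 0.053, and with limma diffSplice 0.37.

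Split by exon instead, the P4HA1 libraries of 0 h and 24 h overlapped. The first exon was in 28.9, 35.6 and 33.5% of the FPKM that could be assigned to either exon at 0 h and in 36.8, 24.2 and 24.1% at 24 h, with an exact permutation p of 0.4. It was in 35.2, 41.1 and 35.4% at 1 h and in 35.1, 30.7 and 28.95% at 2 h, and both times overlapped with 0 h but not with one another. In FPKM, transcripts with the first exon stood at 62.4, 56.0 and 58.1 at 24 h, and those with the second at 107, 176 and 183. The lower P4HA1 level in library 1 of 24 h was thus in transcripts with the second exon. These exon comparisons were chosen after the isoform values were seen.

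In P4HA2 the shorter exon held a smaller share after hypoxia. It was in 87.3, 80.8 and 82.8% of assigned FPKM at 0 h, 83.5, 81.1 and 81.5% at 1 h, 77.0, 74.4 and 78.7% at 2 h, and 74.1, 70.0 and 66.8% at 24 h. The 24 h libraries lay below all 0 h libraries, and so did the 2 h libraries (exact permutation p = 0.1 at 24 h, the smallest possible). Transcripts with the longer exon went from 3.52 ± 0.64 to 17 ± 1.5 FPKM and those with the shorter from 18.1 ± 1.2 to 40.5 ± 4.4 FPKM (SD, n = 3). Among single transcripts ENST00000166534, which has the longer exon, went from 7.89 to 19.5% of P4HA2 FPKM (usage 1.25 ± 0.30, limma adjusted p = 0.023). This call was lost on leaving out library 1 or 3 of 0 h or library 2 or 3 of 24 h (limma adjusted p = 0.051 to 0.079). The model of ENST00000360568 of 2313 bases, with its own start site, fell from 11.2 to 2.93% (usage -2.01 ± 0.37, limma adjusted p = 0.0075). The main transcript, ENST00000379086, held 57.7% at 0 h and 53.4% at 24 h.

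**Figure D4:**
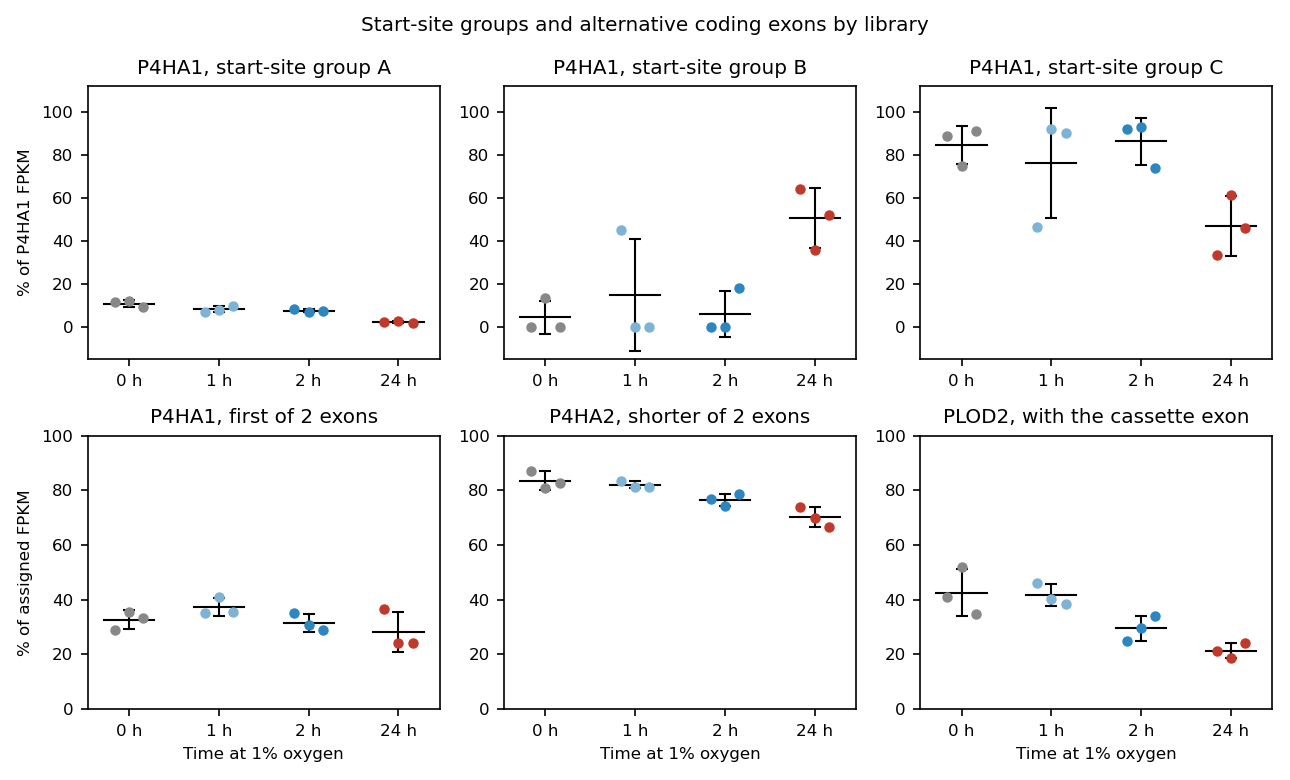
Top, percentage of P4HA1 FPKM in start-site groups A, B and C; bottom, percentage of assigned FPKM with the first P4HA1 exon, the shorter P4HA2 exon and the PLOD2 cassette exon, each by time in 1% oxygen; points are libraries, lines means and bars SD. Group B is at 0 in 6 of the 9 early libraries and at 35.9 to 64.1% at 24 h, when the shorter P4HA2 exon is at 66.8 to 74.1% and the PLOD2 exon at 18.6 to 24.2%.

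PLOD2 transcripts with the cassette exon held 41.1, 51.8 and 35% of assigned FPKM at 0 h, 46.3, 40.2 and 38.5% at 1 h, 25.1, 29.6 and 34.2% at 2 h, and 21.4, 18.6 and 24.2% at 24 h. The 24 h libraries lay below every 0 h library, and so did the 2 h libraries (exact permutation p = 0.1 at 24 h, the smallest possible). Between 9.09 and 18.9% of PLOD2 FPKM at 0 h and between 11.5 and 30.8% at 24 h was in transcripts that could not be assigned. With the class j model nearest to ENST00000282903 counted as containing the exon, the percentages were 40.8 to 54.8 at 0 h and 29.0 to 36.3 at 24 h. In FPKM the summed transcripts of both forms were higher at 24 h: those with the exon went from 2.53 ± 0.56 to 16.8 ± 2.5, and ENST00000360060, which lacks it, from 3.48 ± 1.11 to 61.9 ± 8.2 (SD, n = 3). Most of the FPKM with the exon at 24 h was in ENST00000494950, a shorter model of 2908 bases, so that the percentage with the exon is not that of the longest model, at 14.6, 16 and 10.5 FPKM against 0.68, 2.23 and 1.73 at 0 h. ENST00000282903, of 3732 bases, held 21.7, 10.8 and 9.57% at 0 h and 0, 0 and 9.94% at 24 h (usage -3.98 ± 1.06, limma adjusted p = 0.036). Its call was lost on leaving out any library of 0 h or library 1 or 2 of 24 h (limma adjusted p = 0.068 to 0.12), and with 0.1 FPKM added (0.087).

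The coding transcript ENST00000331483 was the main form of P4HB at both times, at 78.0% of FPKM at 0 h and 71.3% at 24 h (usage -0.52 ± 0.27, limma adjusted p = 0.25). All 5 of its transcripts that passed gained usage, and each held less than 10% of the gene; they were named after their values were seen. A class j model near ENST00000331483 went from 2.41 to 8.02% (usage 1.77, limma adjusted p = 0.0035). The other 4, ENST00000473021, ENST00000474712, ENST00000467086 and ENST00000466567, are annotated as retained introns, and the most abundant of them, ENST00000473021, went from 1.83 to 4.67% (usage 1.32, limma adjusted p = 0.012). Another retained intron transcript, ENST00000476482, went the other way in share, from 10.5 to 7.93% (limma adjusted p = 0.40).

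No main transcript of PLOD1, PLOD3 or LOXL2 passed the usage test in limma. ENST00000196061 held 83.7% of PLOD1 FPKM at 0 h and 84.7% at 24 h. ENST00000223127 held 59.8% of PLOD3 FPKM at 0 h and 67.2% at 24 h (limma adjusted p = 0.32). LOXL2 had 2 main models, both nearest to ENST00000389131: the matching transcript went from 34.5 to 57.2% and a class j model from 42.1 to 33.5%, and at 0 h the matching transcript ranged from 25.4 to 60.8% between libraries. Neither passed (limma adjusted p = 0.32 and 0.55). Transcripts under 10% made up 40.2% of PLOD3, 23.3% of LOXL2 and 23.2% of P4HA2 FPKM at 0 h.

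The rest of the collagen pathway was read from 5 lists. Over all genes tested 8.76% were called higher and 9.51% lower, and the counts of each list stand against these shares. Of 17 tested collagen chains 7 were called higher and none lower in limma, with a median log2 change of 0.98 beside -0.05 over all genes tested. COL13A1, a transmembrane collagen, rose from 4.98 ± 1.00 to 40.4 ± 2.6 FPKM (log2 2.91 ± 0.21, limma adjusted p = 8.9e-07), COL7A1, the anchoring fibril collagen, by 1.83, COL1A1 by 1.59, COL4A3 by 1.53 and COL11A2 by 1.28 on the log2 scale. COL1A1 was low throughout, at 1.92 ± 0.21 FPKM at 0 h and 6.87 ± 1.67 at 24 h, and its partner chain COL1A2 was at most 0.030 FPKM. COL4A3, at 0.44 FPKM at 0 h and 2.16 FPKM at 24 h, would not have passed the filter without its 24 h libraries. The count and median of the chains include it. At an adjusted p of 0.05 with no minimum fold change, 12 of the 17 chains were higher and none lower, where 25.0% of all genes tested were higher and 30.3% lower. By the same rule 5 matrix partners were higher and none lower, 10 folding, export and processing genes higher and 3 lower, 3 breakdown genes higher and 1 lower, and 1 of the other hydroxylases and lysyl oxidases higher and 4 lower. Under TPM over all transcripts the 18 calls of the 5 lists fell to 6. Higher were 1 collagen chain of 11 tested and 1 matrix partner of 5 tested. Lower were 3 of 19 folding, export and processing genes and 1 of 7 other hydroxylases and lysyl oxidases. In that fit 209 of 14531 genes were called higher and 3995 lower. The list medians there were 0.24 for chains, 0.39 for matrix partners and -0.02 for breakdown genes on the log2 scale. They were -0.49 for folding, export and processing genes and -1.06 for the other hydroxylases and lysyl oxidases, beside -0.78 over all genes.

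Of 7 tested lysyl oxidase substrates and matrix partners 4 rose: EFEMP2, which brings lysyl oxidase to elastic fibres, by 2.01, FBLN1 by 1.30, FN1 by 1.16 and LTBP1 by 1.11 on the log2 scale (list median 1.11). FN1 was at 0.95 FPKM at 0 h and 2.73 FPKM at 24 h. EFEMP2, at 0.40 FPKM at 0 h and 3.12 FPKM at 24 h, would not have passed the filter without its 24 h libraries. The count and median of this list include it. Among 20 tested folding, export and processing genes 3 rose, namely the procollagen N-proteinase ADAMTS2 (1.60), the protease FURIN (1.30) and the coat protein SEC24D (1.24), and none were called lower (median 0.21). SERPINH1, the collagen chaperone HSP47, was at 103 ± 11.8 FPKM at 0 h and 64.3 ± 1.7 at 24 h (-0.67 ± 0.11, limma adjusted p = 0.00027), less than the minimum fold change. Of 6 tested collagen breakdown genes TIMP2 (1.13) and MMP14 (1.08) rose (median 0.35).

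Of 8 tested genes of the other hydroxylases, collagen glycosyltransferases and lysyl oxidases 1 rose and 1 fell, with a list median of -0.16. LOXL4 rose from 0.31 to 1.30 FPKM (log2 1.14 ± 0.23, limma adjusted p = 0.0011) and LOXL3 fell from 2.41 to 0.53 FPKM (-1.50 ± 0.22, limma adjusted p = 0.00013). LOXL4 would not have passed the filter without its 24 h libraries. The prolyl 3-hydroxylase LEPRE1 was at 12.9 and 12.8 FPKM, and the collagen galactosyltransferase COLGALT1 at 55.1 ± 1.4 and 42.4 ± 3.0 FPKM (-0.38 ± 0.08, limma adjusted p = 0.0019). No difference between this list and the members was tested.

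**Figure D5:**
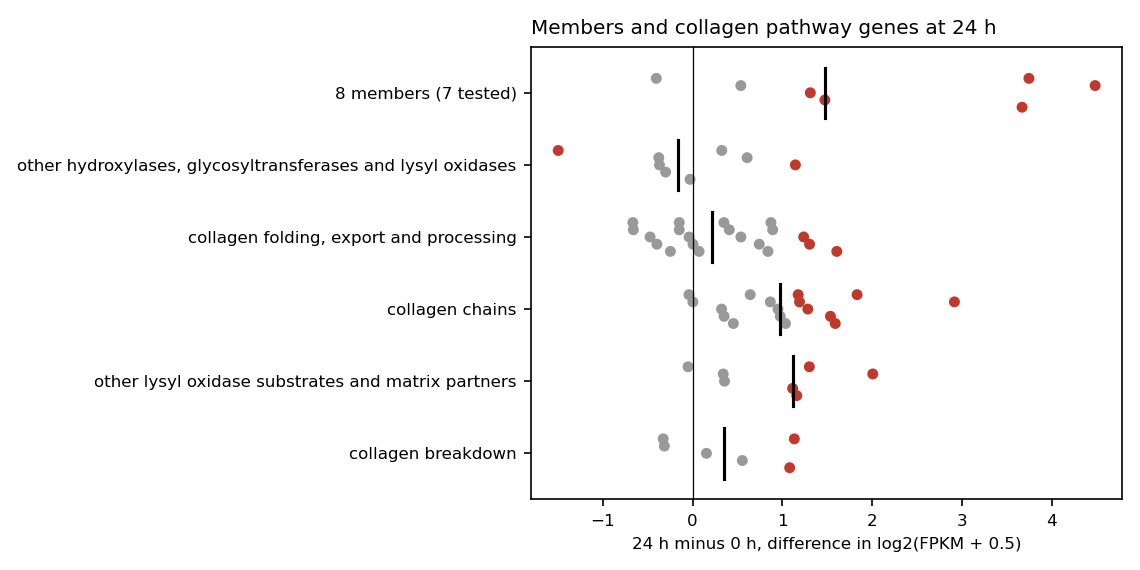
Difference in log2(FPKM + 0.5) between 24 h and 0 h (horizontal axis) of the tested members and of the tested genes of 5 lists; each point is a gene, red points are called, vertical strokes are medians and vertical scatter has no meaning. 7 of 17 collagen chains and 4 of 7 matrix partners are called higher, and among the other hydroxylases and lysyl oxidases 1 is called higher and 1 lower. COL4A3, EFEMP2 and LOXL4 would not have passed the filter without their 24 h libraries.

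The genes whose levels followed each member most closely were found among 14360 genes with a mean of at least 1 FPKM, by Pearson's r of log2(FPKM + 0.5) over the 12 libraries; these 12 points share the 24 h step, and r is given as a description. MXI1 (r = 0.996), INSIG2 (0.995) and BNIP3 (0.994) were closest to P4HA1. NDRG1 (0.993), FAM162A (0.993) and GLRX (0.993) were closest to PLOD2. GPI (0.997), RCOR2 (0.997) and PLEKHG5 (0.994) were closest to PLOD1, and PFKL (0.996), TCF7L1 (0.995) and CHD3 (0.995) to LOXL2. For P4HA2 they were BSPRY (0.993), PPP1R13L (0.992) and CRKL (0.991), and for P4HB ENO1 (0.991), PDLIM1 (0.988) and PDGFA (0.988). PLOD3 had no gene as close, with ASCC2 at 0.954, FAM171A1 at 0.938 and BAIAP2 at 0.930.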

How the data were processed

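Poly(A) RNA of 12 HCT116 libraries (4 time points, 3 replicates each) had been sequenced as strand-specific paired ends. The authors aligned the reads to the human genome (hg19, GRCh37), assembled transcripts with Cufflinks against Ensembl and deposited FPKM values per transcript and library, with class code, nearest reference transcript, start-site group and locus; CASAVA 1.8.2 is named in the submitters' processing notes. FPKM hold no read counts, so the reads behind a value are unknown and no count model was used.

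FPKM of class = and j transcripts were summed per gene name. Gene names above 0.5 FPKM in at least 3 libraries were fitted with limma 3.58.1 (R 4.3.3, trend) on log2(FPKM + 0.5) over all 12 libraries; calls needed an adjusted p below 0.01 and an absolute log2 change above 1. The pseudocount makes changes of low genes too small. Usage was fitted with limma without trend for transcripts and start-site groups of gene names with at least 2 past the filter. Ratios were compared by the exact two-sided permutation test (scipy 1.17.1), with the 10 of 12 comparisons that gave a p adjusted together. Exon structures and upstream sequence came from GENCODE 44 on GRCh37; a transcript was assigned to an exon form when it matched its reference and was at least as long as the annotated coding sequence. Same-numbered libraries of 0 h and 2 h deviated together (r = 0.13 to 0.36 in the 3 pairs), those of 0 h and 24 h did not in every pair, so the replicate number was added as a block in an alternative fit. Scripts were tested on simulated data.

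All 8 members were named with every library, as were up to 5 called genes per list and the 3 most alike genes per member. Transcripts and start-site groups could be named at 10% or more of the gene's FPKM at any time, and not all of these are described. Those below 10% were named after their values were seen. Members and lists were chosen with earlier results of these data known. Alternatives were the pseudocount, filters, transcript classes, locus sums, scalings, model options and leaving out libraries.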

Additional observations from a re-analysis of the deposited data

Results flagged for a closer look

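The effect of hypoxia at 24 h differed from that at 2 h by more than 1 on the log2 scale for 5 members (14.7% of all genes in either direction), tested as the difference between the time points in limma: by 4.44 on the log2 scale for LOXL2 (adjusted p = 3.8e-06), 3.46 for PLOD2 (adjusted p = 8.1e-08), 3.28 for P4HA1 (adjusted p = 4.9e-08), 1.79 for P4HA2 (adjusted p = 1e-07) and 1.39 for PLOD1 (adjusted p = 3.7e-07). P4HB differed by 0.61 (adjusted p = 9.5e-05), below that limit. All 3 libraries of 24 h were higher than all 3 of 2 h in each case. That separation adds no support, since the 5 members were picked by the same difference, and its share over all genes was not counted.

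Outside the transcripts summed here, 2 models assembled on the opposite strand of LOX were above their 0 h level in every 24 h library, while LOX itself was listed at 0. The model of 1256 bases had 0.066, 0.072 and 0.019 FPKM at 0 h and 0.25, 0.29 and 0.22 FPKM at 24 h (mean 0.25), and 0.22, 0.24 and 0.11 FPKM at 2 h. At 1 h it had 0.095, 0.073 and 0.059 FPKM. The model of 1869 bases had 0.064, 0.035 and 0.083 FPKM at 0 h, 0.22, 0.17 and 0.075 FPKM at 1 h, 0.086, 0.15 and 0.082 FPKM at 2 h and 0.099, 0.30 and 0.25 FPKM at 24 h (mean 0.22), so that its 1 h and 24 h libraries overlapped. The difference was not tested, and all values lie below the filter of 0.5 FPKM.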

How the results depend on the processing

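The 5 member calls at 24 h stayed between 5 and 6 under every alternative other than TPM over all transcripts (3), and between 4 and 6 for 24 h against 2 h; without each library in turn they were 5 at both. No member was called at 1 h or 2 h under any. TPM over all transcripts reversed P4HB at 24 h (-0.34, adjusted p = 0.57) and P4HA1 at 2 h (-0.65, adjusted p = 0.16). Pathway calls were 18 and lay between 13 and 20, except 6 under that TPM scaling and 39 at an adjusted p of 0.05 with no minimum fold. Member transcripts passing the usage test were 17, but 11 with a pseudocount of 0.1, 47 with no filter and 7 at an adjusted p of 0.01; start-site groups were 9, but 14 with a pseudocount of 1, 28 with no filter and 5 at an adjusted p of 0.01; the cause was not tested. Without each library in turn these were 12 to 19 transcripts and 7 to 10 groups. The 24 h ratio differences other than LOX, which was 0, kept their sign without each library, with the authors' filter and with class = only; those of 1 h and 2 h were not rerun. Counting the class j model changed the PLOD2 exon difference from -21.3 to -14.7 percentage points, an alternative added after seeing the data.

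Same-numbered libraries of 0 h and 24 h correlated at -0.001 to 0.24 in their deviations from group means, over 0.1 in 1 of 3 pairs, and 2 of these 6 libraries correlated best with their own number, so that no pairing was assumed for 24 h; between 0 h and 2 h all 3 pairs were over 0.1. With the replicate number as a block the calls were 5 members at 24 h, 19 pathway genes, 17 transcripts and 8 start-site groups, and none of the members at 1 h or 2 h; PLOD3 at 24 h had an adjusted p of 0.027 in place of 0.084 and was not called. FPKM carry no counts, which limits what can be said of LOX and of minor transcripts.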
